A study of Rattus norvegicus with 12 samples.

Results

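The miRNAs miR-134, miR-329, miR-381 and miR-485 were followed across all 12 small RNA libraries of the series. Their members were found by name alone, as the names miR-134, miR-329, miR-381 or miR-485 with a 5p or 3p arm (the rule itself uses no measured value, but the 4 hairpins were picked with earlier results of these data known). The rule found 8 of the 685 miRNA names in the count tables, the 2 arms of each of the 4 hairpins. The tables give them the prefix rno- for the rat, as in rno-miR-134-5p, which is otherwise left out here. The cells were primary cortical neurons of Sprague Dawley rats, dissociated at embryonic day 17. They were transduced with lentivirus at 10 days in vitro and lysed at 14 days in vitro. The 3 groups differed in the short hairpin RNA (shRNA) that the virus carried: a non-targeting control (shNTC), an shRNA against Stau2 (shStau2) or an shRNA against Pum2 (shPum2), with 4 libraries each. All groups, the control included, thus carried a lentiviral shRNA. Staufen2, the product of Stau2, binds double-stranded RNA, and Pumilio 2, the product of Pum2, binds short motifs in the 3' ends of mRNAs. How far either protein was depleted was not analysed here, because the tables hold small RNAs only, and the labels describe whole cultures and not sorted neurons.

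A miRNA hairpin is cut into a duplex whose 5p or 3p arm is loaded into an Argonaute protein, and bases 2 to 8 of the loaded arm, the seed, pair with target mRNAs. The 4 hairpins belong to the imprinted cluster that runs from miR-379 to miR-410, a long maternally expressed transcript that neuronal activity induces through the transcription factor Mef2. Within dendrites, miR-134 represses Limk1, a kinase that acts on spine size, and it represses Pum2 during activity-dependent dendrite growth, for which miR-329 and miR-381 are also needed. The miR-485 hairpin is known for repressing the synaptic vesicle protein SV2A. This is background and was not measured here.

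The mature sequences, from the RefSeq table of assembly GRCr8, show what each arm could pair with and which names could have been confused in read assignment. Bases 2 to 8 are in capitals.
rno-miR-134-5p: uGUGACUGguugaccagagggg
rno-miR-134-3p: cUGUGGGCcaccuagucaccaa
rno-miR-329-5p: aGAGGUUUucugggucucuguuuc
rno-miR-329-3p: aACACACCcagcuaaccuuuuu
rno-miR-381-5p: aGCGAGGUugcccuuuguauau
rno-miR-381-3p: uAUACAAGggcaagcucu
rno-miR-485-5p: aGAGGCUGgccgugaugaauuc
rno-miR-485-3p: cAUACACGgcucuccucucuuc

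No 2 of the 8 arms had the same seed. The closest were miR-381-3p and miR-485-3p, whose seeds were equal at 6 of 7 bases. The arms miR-329-5p and miR-485-5p began with the same 5 bases and were equal at 5 of 7 seed bases. Only names with a RefSeq mature sequence, 613 of the 685, could be compared. Among the other miRNAs with such a sequence, 2 had a member's seed. One was miR-362-3p, with the seed of miR-329-3p, and the other was miR-539-3p of the same cluster, with the seed of miR-381-3p. Whole sequences were compared with the ends of the longer one left unscored. By this measure the nearest to any member was miR-300-3p, a further cluster miRNA. It matched the 18 listed bases of miR-381-3p at all but 1, and its own further bases were not scored. By the same measure, the next closest pairs of a member with another miRNA that could be compared differed by at least 4 changes. The values of miR-381-3p and miR-300-3p are therefore uncertain to the extent that reads were exchanged between them. The 3 sequences follow, to be read against those of the members.
miR-362-3p: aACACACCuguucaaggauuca
miR-539-3p: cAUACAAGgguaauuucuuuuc
miR-300-3p: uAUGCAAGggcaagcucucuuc

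On assembly GRCr8 the 4 genes follow each other in the order Mir329, Mir381, Mir134 and Mir485. Between Mir329 and Mir381 stand 11 other miRNA genes, between Mir381 and Mir134 stand 7, and Mir134 and Mir485 are separated by Mir668 alone. The hairpins of the table are given with the mature arms in capitals, because the shares of the 2 arms are compared later on.
Mir134 hairpin: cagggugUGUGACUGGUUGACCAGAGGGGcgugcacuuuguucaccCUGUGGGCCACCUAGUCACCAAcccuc
Mir329 hairpin: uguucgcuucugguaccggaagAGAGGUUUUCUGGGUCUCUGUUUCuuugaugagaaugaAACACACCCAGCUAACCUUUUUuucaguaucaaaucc
Mir381 hairpin: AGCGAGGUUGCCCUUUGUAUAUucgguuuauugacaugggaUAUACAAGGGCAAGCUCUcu

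Libraries held between 3836349 and 5415763 counts, of which 12643 to 17077 belonged to the members, or 0.277 to 0.388% of a library's miRNA counts. Levels are in CPM, a library's miRNA counts scaled to a common total, after trimmed mean of M-values (TMM) scaling, given as mean ± SD with n = 4. They are shares of a library and not amounts per cell, so fewer cells of a type and less RNA per cell cannot be told apart. The 3 neuronal markers fixed for the check (miR-124-3p, miR-128-3p and miR-9a-5p) summed to between 260033 and 322142 CPM. The 4 markers of astrocytes and dividing cells summed to 4608 to 7429 CPM in shNTC, 2673 to 3939 in shStau2 and 3245 to 5350 in shPum2. Their list held miR-143-3p, which was also listed for vessels and mesenchyme and is counted in both sums. Markers of oligodendrocytes summed to at most 406 CPM, those of microglia and blood to at most 384, and those of vessels and mesenchyme to at most 1067. None of the neuronal, astrocyte, oligodendrocyte or vessel markers was at 0 in a whole group, and 1 of the 6 microglia and blood markers was at 0 in shStau2.

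In control neurons the 4 hairpins spanned a wide range of levels, and each arm kept roughly its place in every group. The guide arm miR-134-5p stood at 1454 ± 74.9 CPM in shNTC, the 63rd highest of 685 names, and miR-381-3p at 1183 ± 240 CPM, the 72nd. Next came miR-329-5p at 227 ± 20.5 CPM, miR-485-3p at 142 ± 19.1 CPM, miR-485-5p at 118 ± 9.33 CPM and miR-329-3p at 50.8 ± 7.79 CPM. The passenger arm miR-134-3p stood at 3.57 ± 0.286 CPM, from 14 to 20 counts a library.

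Some neighbours in this order were not separated. In 10 of 12 libraries miR-134-5p was above miR-381-3p, with a ratio between 0.997 and 1.61. Likewise miR-329-5p was above miR-485-3p in 10 of 12 libraries, and miR-485-3p above miR-485-5p in 11 of 12. The other steps held in 12 of 12 libraries: miR-381-3p was 4.26 to 8.12 times as high as miR-329-5p, miR-485-5p was 1.94 to 3.14 times as high as miR-329-3p, and miR-329-3p was 8.91 to 23.7 times as high as miR-134-3p.

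The arm miR-381-5p was at or near the limit of detection. It had 0 counts in 8 libraries, among them all 4 of shStau2, and 6, 6, 4 and 13 counts in shNTC replicates 2 and 3 and shPum2 replicates 2 and 3. At these depths 3 counts were worth 0.588 to 0.763 CPM. It did not pass the filter on low counts and has no test, and no fold is given for it. The other 7 members passed the filter.

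**Figure D1:**
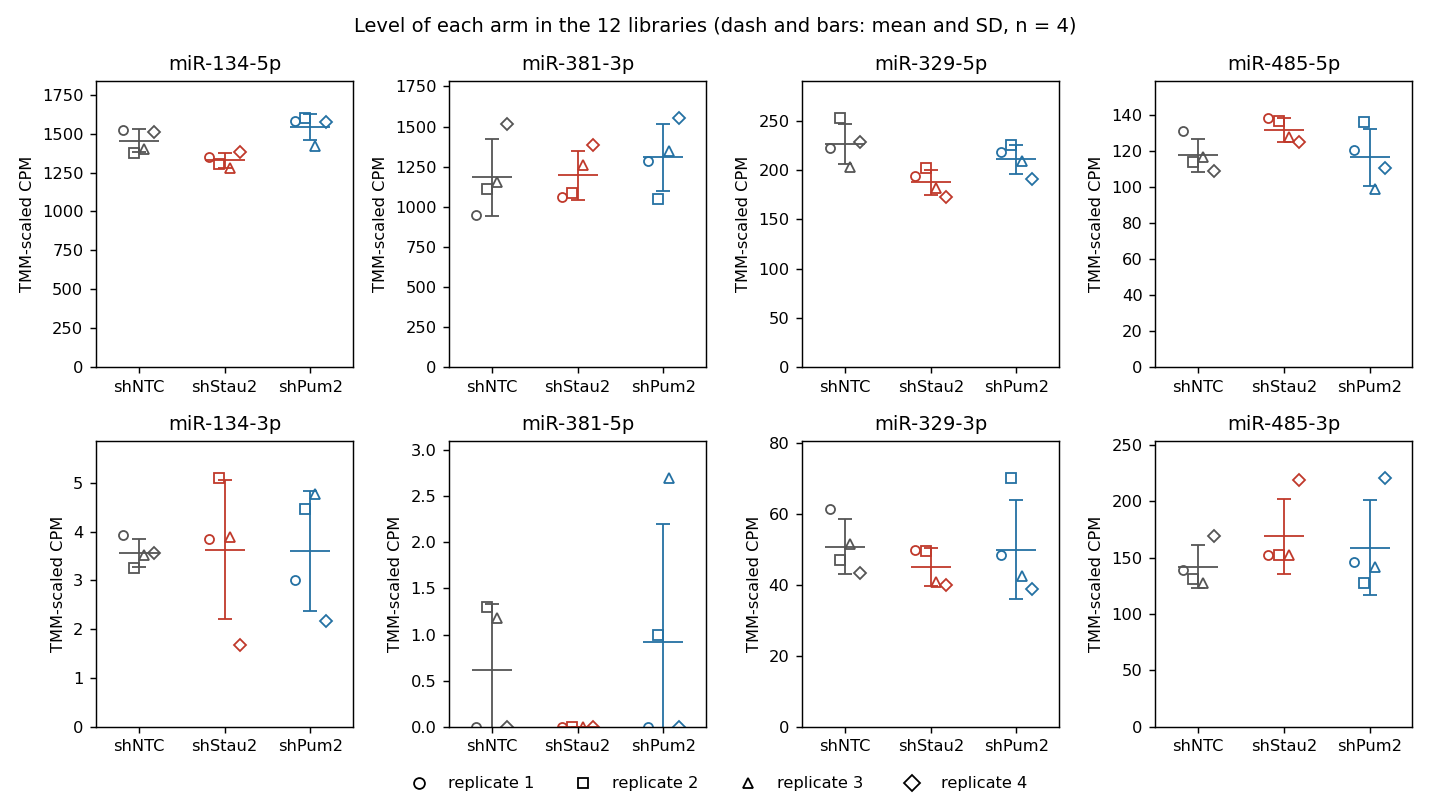
Level of each of the 8 arms in TMM-scaled CPM (vertical axis, from 0, a scale per panel) in the 12 libraries, by group, with marker shapes for replicate numbers, a dash for the group mean and bars for the SD. The groups of miR-381-3p and miR-485-3p lie over each other with replicate 4 at the top of each, while all 4 shStau2 values of miR-329-5p lie below the 4 shNTC values.

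The comparison of shStau2 with shNTC asks what follows when Stau2 is targeted. None of the 7 members tested passed edgeR's test (0 of 7, beside 2 of 628 miRNAs, 0.318%, at an adjusted p of 0.05). DESeq2 called 0 of 7 members and 17 of 628 miRNAs (2.71%). In that fit miR-134-3p was given no adjusted p. The DESeq2 shares given here count any miRNA without an adjusted p as not called. Of the 7, 4 had a positive and 3 a negative log2 fold change, with a median of 0.02 beside 0.00 over all 628. With the replicate number as a block, which paired libraries of the same number, 39 of 628 miRNAs passed (6.21%), and again 0 of the 7 members did. At an unadjusted p of 0.05, 1 of 7 members was past the threshold without the block, miR-329-5p, beside 71 of 628 miRNAs (11.3%), and 2 with it, miR-329-5p and miR-485-3p, beside 141 (22.5%).

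The member with the smallest p was miR-329-5p. Its levels in replicates 1 to 4 were 222, 253, 203 and 228 CPM in shNTC, 194, 202, 182 and 173 CPM in shStau2, and 219, 225, 209 and 191 CPM in shPum2. All shStau2 libraries lay below all shNTC libraries, while shPum2 overlapped both groups. Groups that did not overlap in this direction were seen for 33 of the 628 miRNAs (5.25%). The log2 fold change in shStau2 against shNTC was -0.27 (SE 0.10, edgeR adjusted p = 0.294), and -0.27 with the block (SE 0.08, adjusted p = 0.0592). The value passed in 2 of its 30 fits, both chosen after seeing the data: with the block it passed in DESeq2 (-0.28, adjusted p = 0.0373), where 35 of 628 miRNAs did (5.57%), and with scaling to library totals (-0.33, adjusted p = 0.0211), where 39 did (6.21%).

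The other arm of that hairpin, miR-329-3p, stood at 61.3, 46.9, 51.5 and 43.3 CPM in shNTC and at 49.9, 49.4, 40.8 and 39.8 CPM in shStau2. The groups overlapped. In the fit without the block the log2 fold change of -0.18 (SE 0.18, adjusted p = 0.781) was no larger than its error. This unblocked value was -0.07 without shNTC replicate 1. With the block the log2 fold change was -0.18 (SE 0.13, adjusted p = 0.439). The seed mate of miR-329-3p, miR-362-3p, stood at 9.77 ± 1.36 CPM in shNTC and 7.20 ± 1.63 CPM in shStau2. It did not pass (-0.44, adjusted p = 0.495).

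Of the miRNAs most like miR-329-5p, 1 is among the astrocyte and dividing-cell markers. Over the 12 libraries, of the 448 miRNAs with a mean of at least 10 CPM, the non-members most like it were miR-21-5p, known from astrocytes and dividing cells (Pearson r of log2 CPM 0.90), miR-27a-5p (0.88) and miR-345-3p (0.84). The libraries share groups and replicate numbers, so these are descriptions. For miR-21-5p the range was 2340 to 4891 CPM in shNTC, 1228 to 1904 in shStau2 and 1543 to 2956 in shPum2. Of the 3 other markers of that list, miR-27a-3p also did not overlap between shNTC (521 to 533 CPM) and shStau2 (303 to 428 CPM). The other 2 did overlap: miR-23a-3p ranged from 1383 to 2237 CPM in shNTC and from 979 to 1561 CPM in shStau2, and miR-143-3p from 34.3 to 244 CPM and from 46.1 to 164 CPM. Their sum did not overlap between these groups, with miR-21-5p as its largest part, and the part of these markers in the lower miR-329-5p was not tested.

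The guide arm miR-134-5p, the repressor of Limk1 and Pum2, had levels of 1524, 1378, 1403 and 1513 CPM in shNTC, 1350, 1304, 1278 and 1383 CPM in shStau2, and 1583, 1599, 1422 and 1578 CPM in shPum2. In each replicate number the order was shStau2, then shNTC, then shPum2, and the shStau2 and shNTC ranges overlapped only at shStau2 replicate 4 and shNTC replicate 2. The log2 fold change in shStau2 against shNTC was -0.13 (SE 0.08, adjusted p = 0.564). Being lower in 4 of 4 pairs of the same number was shared by 91 of 628 miRNAs (14.5%). Its partner miR-134-3p had 7 to 23 counts in the 12 libraries. It differed by 0.03 on the log2 scale (SE 0.31, adjusted p = 0.984), a value that turned to -0.03 with scaling to library totals. A change of the size seen for miR-134-5p was not detectable at that depth.

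Both arms of miR-485 had positive values in shStau2 against shNTC. The 5p arm, which is the one known for SV2A, stood at 131, 114, 116 and 109 CPM in shNTC and at 138, 137, 128 and 125 CPM in shStau2. It was higher in 4 of 4 pairs, as were 101 of 628 miRNAs (16.1%), but the groups overlapped and it did not pass (log2 fold change 0.16, SE 0.11, adjusted p = 0.632). The 3p arm stood at 139, 131, 128 and 169 CPM in shNTC and at 152, 153, 152 and 219 CPM in shStau2. It too was higher in 4 of 4 pairs without passing (0.25, SE 0.17, adjusted p = 0.632, and 0.24, SE 0.09, adjusted p = 0.118 with the block). Without 1 library this value lay between 0.10, without shStau2 replicate 4, and 0.35, without shNTC replicate 4. In each of these groups replicate 4 was well above the rest.

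The arm miR-381-3p did not differ detectably. It stood at 948, 1113, 1152 and 1517 CPM in shNTC and at 1063, 1083, 1258 and 1383 CPM in shStau2. The shStau2 range lay within that of shNTC. Its log2 fold change was 0.02 (SE 0.14, adjusted p = 0.984) and turned to -0.05 with scaling to library totals. Its near copy miR-300-3p stood at 1562 ± 242 CPM in shNTC and 1401 ± 95.7 CPM in shStau2 (-0.16, adjusted p = 0.607). The seed mate miR-539-3p had 316 ± 13.4 and 276 ± 20.6 CPM (-0.19, adjusted p = 0.585). Neither passed.

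**Figure D2:**
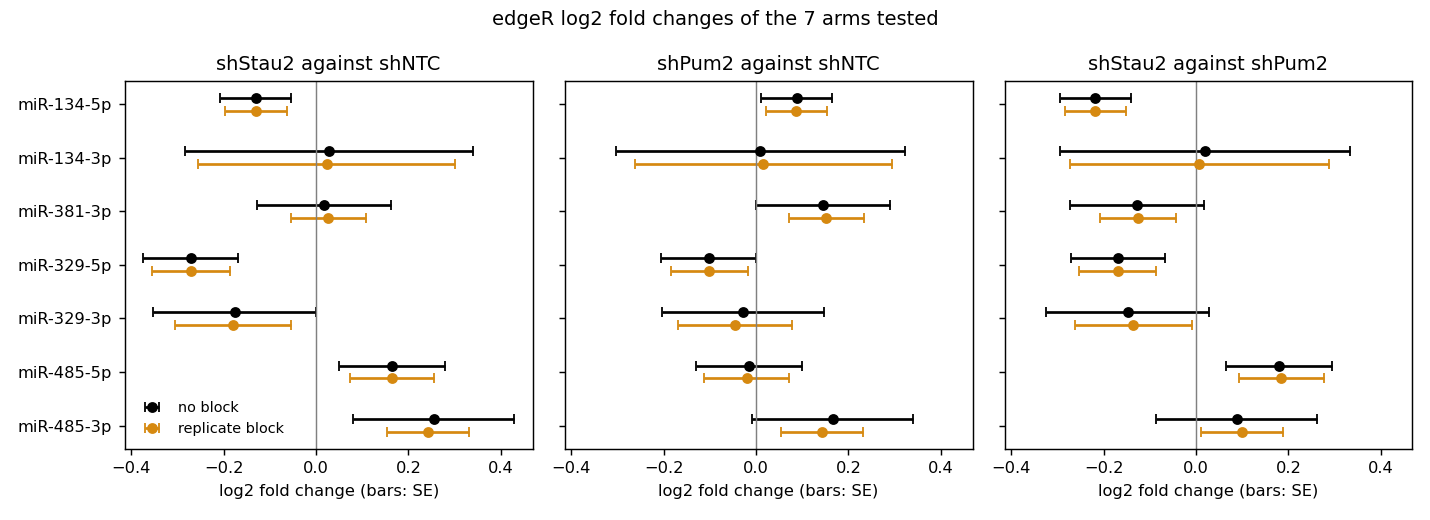
Log2 fold change (horizontal axis) of the 7 arms tested in the 3 comparisons, from edgeR without a block (black) and with the replicate block (orange), with bars of 1 SE. The arms of miR-329 lie left of 0 and those of miR-485 right of 0 in shStau2 against shNTC, and miR-134-5p lies left of 0 in both comparisons of shStau2 and right of 0 in shPum2 against shNTC.

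The comparison of shPum2 with shNTC uses the shRNA that the series text names as a further control for changes brought by any shRNA. It also bears on a known target of miR-134, since Pum2 mRNA is repressed by it. None of the 7 members passed in edgeR's test, as was so for all 628 miRNAs (0%). With the block 0 of 7 passed, beside 1 of 628 (0.159%). At an unadjusted p of 0.05 the counts were 0 of 7 members and 9 of 628 miRNAs (1.43%), and DESeq2 called 0 of 628 miRNAs (0%) without the block. With the block, 0 of 7 members and 46 of 628 miRNAs (7.32%) were past that unadjusted p.

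In this comparison miR-134-5p was at 1545 ± 82.8 CPM in shPum2 against 1454 ± 74.9 in shNTC. The difference was positive in 4 of 4 pairs, as for 40 of 628 miRNAs (6.37%), and did not pass (log2 fold change 0.09, SE 0.08, adjusted p = 0.982). The shPum2 levels of miR-381-3p were 1283, 1049, 1347 and 1551 CPM, and the difference was 0.15 (SE 0.14, adjusted p = 0.982). It was 0.05 without shPum2 replicate 4 and 0.29 without shNTC replicate 4. For miR-485-3p they were 146, 127, 142 and 221 CPM, a difference of 0.17 (SE 0.17, adjusted p = 0.982). Without shPum2 replicate 4 the latter turned to -0.04. The 5p arm of miR-485 stood at 121, 136, 98.6 and 110 CPM, with a log2 fold change of -0.01 (SE 0.11). Fitted with the block, miR-134-5p had 0.09 (SE 0.07, adjusted p = 0.777) and miR-381-3p 0.15 (SE 0.08, adjusted p = 0.659). The block gave 0.14 for miR-485-3p (SE 0.09, adjusted p = 0.692) and -0.02 for miR-485-5p (SE 0.09, adjusted p = 0.961).

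The arms of miR-329 had shPum2 levels near those of the control as well. The 5p arm had a log2 fold change of -0.10 (SE 0.10) and the 3p arm of -0.03 (SE 0.18), with adjusted p = 0.982 for each in edgeR's test. Without shNTC replicate 2 the 5p value was -0.03. In shPum2 the 3p arm was spread widely, at 48.3, 70.1, 42.6 and 38.7 CPM, and its highest library, replicate 2, lay above all shNTC libraries. For miR-134-3p the value was 0.01 (SE 0.31).

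The comparison of shStau2 with shPum2 sets 2 targeting shRNAs against each other. None of the 7 members passed here either, without the block (3 of 628 miRNAs passed, 0.478%) or with it (25 of 628, 3.98%), and DESeq2 called 0 of 7 members and 7 of 628 miRNAs (1.11%). At an unadjusted p of 0.05, miR-134-5p was past the threshold in both fits, beside 59 of 628 miRNAs without the block (9.39%) and 124 with it (19.7%). The median of the 7 members was -0.13, with 3 positive and 4 negative values, beside 0.01 over all 628. Since this comparison and the 2 others share libraries, their values are not independent.

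For miR-134-5p the highest shStau2 library, at 1383 CPM, lay below the lowest shPum2 library, at 1422 CPM. Groups that did not overlap with shStau2 lower occurred for 17 of 628 miRNAs (2.71%). Its log2 fold change was -0.22 (SE 0.08, adjusted p = 0.451), with the 16th smallest p of the 628, and -0.22 with the block (SE 0.07, adjusted p = 0.0719). With the block it passed in DESeq2 (-0.23, adjusted p = 0.0254), as did 31 of 628 miRNAs (4.94%), and with scaling to library totals (-0.28, adjusted p = 0.017), as did 26 (4.14%), fits chosen after seeing the data. These were 2 of the 30 fits of this value.

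The remaining members showed smaller differences relative to their errors. In 4 of 4 pairs miR-329-5p was lower in shStau2, by -0.17 on the log2 scale (SE 0.10, adjusted p = 0.595). In 4 of 4 pairs miR-485-5p was higher, by 0.18 (SE 0.11, adjusted p = 0.604). Of 628 miRNAs, 83 were lower (13.2%) and 88 higher (14%) in 4 of 4 pairs. The values were -0.15 (SE 0.18) for miR-329-3p, -0.13 (SE 0.14) for miR-381-3p, 0.09 (SE 0.17) for miR-485-3p and 0.02 (SE 0.31) for miR-134-3p. Without 1 library miR-381-3p lay between -0.25 (without shPum2 replicate 2) and -0.04 (without shPum2 replicate 4). Removing shPum2 replicate 2 turned miR-329-3p to 0.04, and removing that library or shStau2 replicate 4 turned miR-485-3p to -0.04 or -0.06.

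In 2 of the members the replicate 4 libraries of all groups stood above every other library. In replicate 4 of the 3 groups miR-485-3p stood at 169 to 221 CPM, above all 9 other libraries, which reached 127 to 153 CPM. For miR-381-3p replicate 4 stood at 1383 to 1551 CPM, above the 948 to 1347 CPM of the others. Of the squared deviations from the group means, the share lying between replicate numbers was 91.8% for miR-485-3p and 82.0% for miR-381-3p, beside a median of 56.8% (quartiles 34.9 and 76.3%) over the 628 miRNAs. It was 71.7% for miR-329-5p, 70.8% for miR-134-5p and 56.3 to 56.6% for miR-134-3p, miR-329-3p and miR-485-5p. These shares were taken after removing the group means, so they do not weigh replicate numbers against groups. The labels do not say what a replicate number stands for.

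The members did not follow a common pattern over the 12 libraries. The highest likeness between 2 members was that of miR-381-3p and miR-485-3p (Pearson r 0.70), both high in replicate 4. The lowest was that of miR-381-3p and miR-329-3p (r -0.81). The arms of a hairpin were not close either, with r 0.49 for the miR-329 arms and -0.15 for the miR-485 arms. Non-members most like miR-134-5p were the cluster miRNAs miR-543-3p (0.84) and miR-380-3p (0.79) and miR-760-3p (0.78). For miR-329-3p they were the cluster miRNAs miR-323-3p (0.90) and miR-412-5p (0.79) and miR-664-2-5p (0.73).

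Outside the cluster lay most of the closest patterns of the other members. Those of miR-381-3p were miR-135b-5p (0.93), miR-27b-3p (0.92) and the cluster miRNA miR-411-5p (0.90). Those of miR-485-3p were miR-328a-3p (0.84), the cluster miRNA miR-379-5p (0.82) and miR-135b-5p (0.82). Those of miR-485-5p were miR-31a-5p (0.88), miR-344b-1-3p (0.84) and miR-106b-3p (0.84). All are correlations of 12 libraries that share groups and replicate numbers, given without a test.

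The share of the 5p arm set the 4 hairpins far apart in every group. The 5p share of the counts of both arms was 99.8% ± 0.0116 in shNTC for miR-134, 81.6% ± 3.01 for miR-329, 45.5% ± 4.29 for miR-485 and 0.0546% ± 0.0633 for miR-381. In shStau2 it was 99.7% ± 0.112, 80.7% ± 0.967 and 44.2% ± 5.31 for the first 3, and in shPum2 99.8% ± 0.0886, 81.1% ± 3.28 and 42.8% ± 7.71. In shStau2 the 5p share of miR-381 was 0 in every library, which allows a share of up to 0.0515 to 0.0643%, taken as 3 counts of a library's total for both arms.

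The log2 ratio of 5p to 3p counts was compared between groups with exact two-sided permutation tests, which with 4 against 4 cannot go below 0.0286. Adjusted over 12 tests, a single test at that p would have 0.343, and at least 7 would have to reach it to pass, so that the adjusted values say little about whether the groups differ. The adjusted p was 0.943 for each, and the unadjusted exact p values lay between 0.343 and 0.943. These tests ignored the pairing by replicate number, so the spread between numbers enters their p-values. For miR-329 the ratio differed by -0.10 in shStau2 against shNTC (exact permutation p = 0.486, higher in 2 of 4 pairs) and for miR-485 by -0.08 (p = 0.543, higher in 1 of 4). For miR-134 it differed by -0.06 (exact permutation p = 0.943). In shPum2 against shNTC the differences were 0.14 for miR-134, -0.05 for miR-329 and -0.16 for miR-485. The log2 ratio of miR-381 is set by the pseudocount wherever the 5p arm has 0 counts, so it is not described as a difference between groups.

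By replicate number the arms of miR-485 did shift. The 5p share in replicate 4 was 39.2% in shNTC (exact 95% binomial interval 36.3 to 42.1%), 36.3% in shStau2 (33.8 to 38.9%) and 33.4% in shPum2 (31.0 to 35.8%). In the other 9 libraries it lay between 41.0 and 51.7%. These intervals cover counting error only. The 5p share of miR-329 in replicate 4, between 81.3 and 84.1%, lay within the 76.3 to 84.3% of the others.

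**Figure D3:**
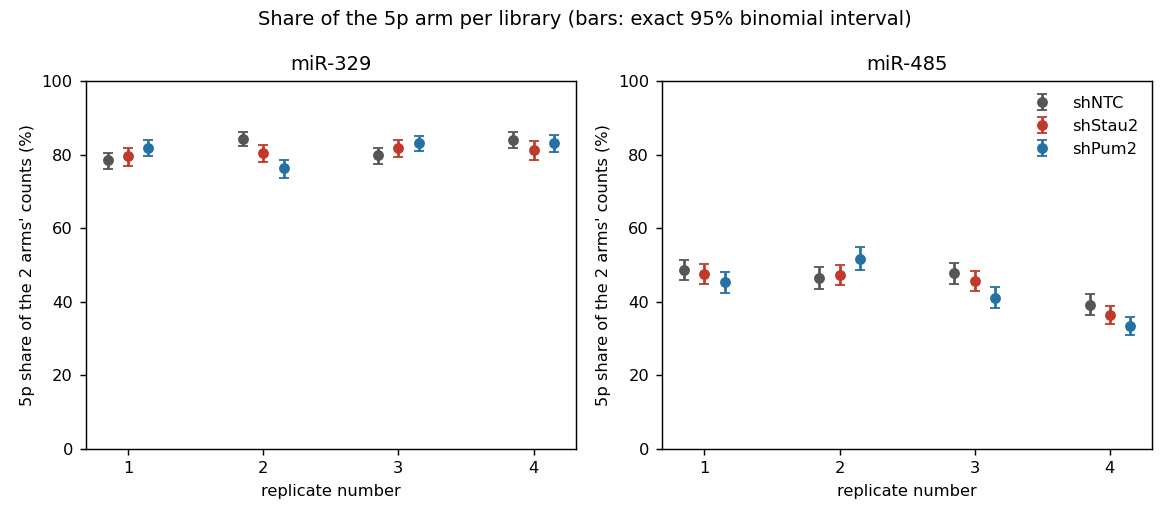
Share of the 5p arm in the counts of both arms (vertical axis, percent, from 0) for miR-329 and miR-485 by replicate number (horizontal axis), with colours for the groups and bars for the exact 95% binomial interval of each library. The 3 libraries of replicate 4 are the lowest for miR-485, at 33.4 to 39.2%, whereas for miR-329 they lie among the others.

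The other arms of the cluster were taken from a list of 34 hairpin names, of which 59 arms were in the tables and 58 passed the filter. The list was chosen with earlier results of these data known, so its shares are no test of enrichment. In shStau2 against shNTC 39 of the 58 had a negative log2 fold change, with a median of -0.08, beside 311 of 628 and 0.00 for all miRNAs. None of the 58 passed in edgeR without the block, where 6 were past an unadjusted p of 0.05 (11.3% of all miRNAs were), and 4 passed in DESeq2 (2.71% of all did). With the block 5 fell, where 24 of all 628 miRNAs fell (3.82%). They were miR-409b (-0.25, adjusted p = 0.0491), miR-380-3p (-0.41, adjusted p = 0.015), miR-543-3p (-0.42, adjusted p = 0.0144), miR-758-3p (-0.48, adjusted p = 0.041) and miR-495 (-0.58, adjusted p = 0.00119). The 7 members spread to both sides of the median of the other arms, from -0.27 for miR-329-5p to 0.25 for miR-485-3p. The 3 most abundant of the other arms, miR-382-5p (0.04), miR-379-5p (-0.004) and miR-323-3p (-0.07), did not pass.

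In shPum2 against shNTC 28 of the 58 arms had a positive value and 30 a negative one, the median was -0.0033, and 0 passed in edgeR with or without the block or in DESeq2. At an unadjusted p of 0.05 there was 1 of 58 without the block (1.43% of all miRNAs) and 6 with it (7.32% of all). In shStau2 against shPum2 the median was -0.06 and 40 of 58 values were negative. Without the block 10 of 58 were past an unadjusted p of 0.05 (9.39% of all miRNAs were). DESeq2 called 4 of 58 (1.11% of all), and edgeR 1 of 58, beside 3 of 628 (0.478%). The 1 was miR-495, whose gene lies between Mir329 and Mir381. It fell from 83.7 ± 14.4 CPM in shPum2 to 46.7 ± 9.70 CPM in shStau2 (-0.84, SE 0.17, adjusted p = 0.0349). With the block 4 fell, beside 15 of 628 (2.39%): miR-409b (-0.30), miR-543-3p (-0.43), miR-495 (-0.85) and miR-380-3p (-0.53). DESeq2 with the block called 6 of 58 (4.94% of all). Without the block, the call of miR-495 was lost in 9 of the 12 fits without 1 library (adjusted p from 0.0144 to 0.185). It was kept without shNTC replicate 2, shNTC replicate 4 or shPum2 replicate 2.

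**Figure D4:**
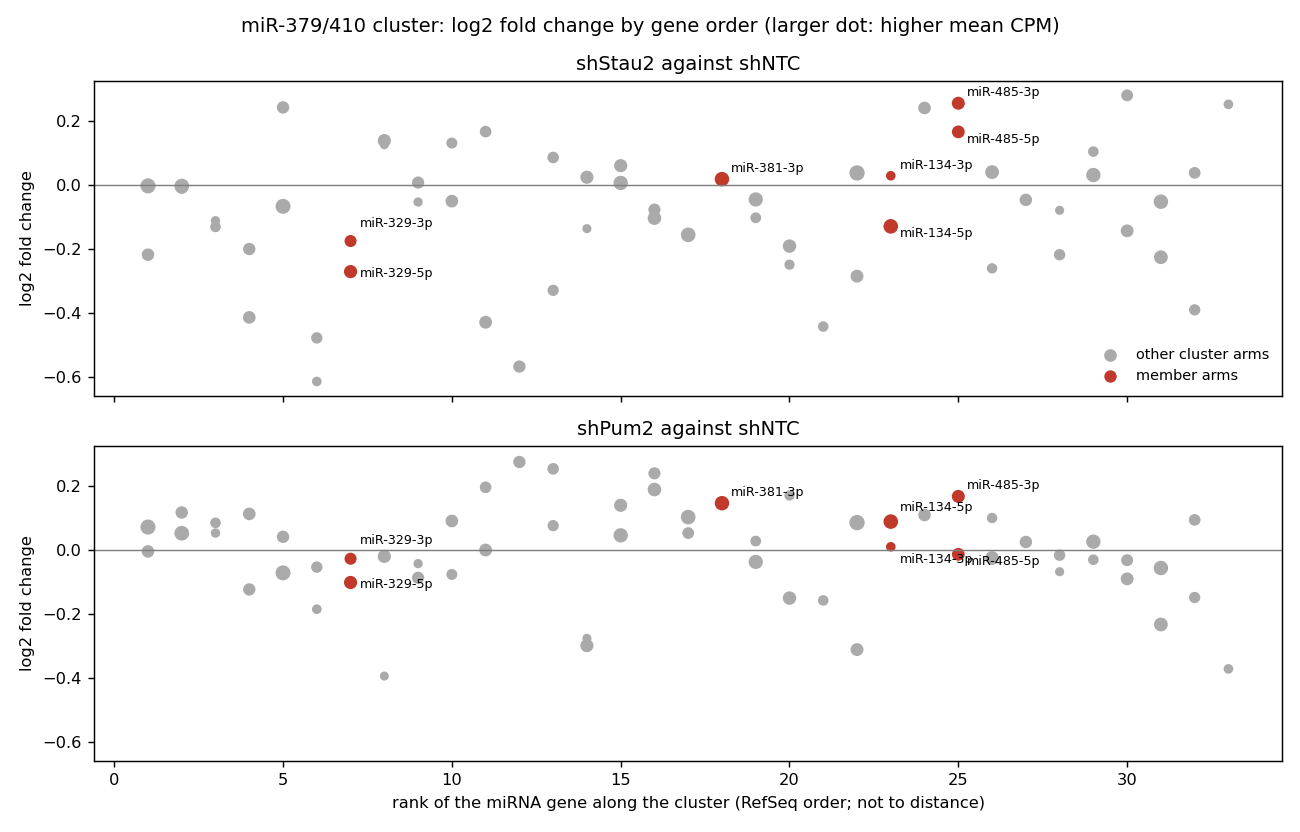
Log2 fold change (vertical axis) of 60 arms against the rank of their gene along the cluster in RefSeq order (horizontal axis, 33 genes, not to distance), for shStau2 and shPum2 against shNTC, with the 7 member arms in red and larger dots for higher mean CPM. Of the 58 other arms tested, 53 are placed, and miR-409b is not among them. In shStau2 the arms of Mir329 lie below 0 and those of Mir485 above 0. The other cluster arms, taken along the whole cluster, lie on either side of 0 in both plots.

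Further miRNAs linked to dendrites, spines or neuronal activity but made outside the cluster formed a list of 17 names, all of which passed the filter. This list too was chosen with earlier results of these data known, so its shares are no test of enrichment. Without the block 0 of 17 passed in edgeR's test in any of the 3 comparisons. At an unadjusted p of 0.05 there were 5, 0 and 4 in shStau2 against shNTC, shPum2 against shNTC and shStau2 against shPum2, beside 11.3%, 1.43% and 9.39% of all miRNAs. DESeq2 called 2, 0 and 0, beside 2.71%, 0% and 1.11%. Under the block 8, 4 and 6 of 17 were past an unadjusted p of 0.05, beside 22.5%, 7.32% and 19.7% of all miRNAs. With the block 3 of 17 passed in shStau2 against shNTC, beside 39 of 628 miRNAs (6.21%). Of these 3, miR-125a-5p (0.32, adjusted p = 0.0038) and miR-125b-5p (0.25, adjusted p = 0.0147) rose, as did 15 of 628 miRNAs (2.39%). Both are known from synaptic mRNA regulation. The third, miR-29a-3p, fell (-0.68, adjusted p = 0.00374), as did 24 of 628 (3.82%). The medians were 0.01 for the list and 0.00 for all miRNAs. In shStau2 against shPum2, miR-125a-5p (0.27) and miR-125b-5p (0.23) rose with the block, where 10 of 628 did (1.59%), and in shPum2 against shNTC 0 of 17 passed. The abundant neuronal miRNAs miR-9a-5p (0.01) and miR-128-3p (0.10) did not pass in shStau2 against shNTC.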

How the data were processed

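Each library has a deposited table of counts by small RNA name, whole numbers that the authors did not normalise. Per the labels' protocols, RNA was isolated as a batch and the library kit used unique molecular identifiers. Build Rnor 6.0 comes from the submitters' processing notes. The aligner, the counter and whether reads or molecules were counted are not given in the sources used here. If reads were counted, amplification copies add to the apparent depth. No coordinates are printed because the RefSeq tables use GRCr8. Of 685 miRNA names 613 matched a RefSeq mature sequence, all 8 members among them.

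Counts of miRNA names were fitted with edgeR 4.0.16 in R 4.3.3: TMM scaling, filterByExpr by group (628 kept, 57 removed), robust quasi-likelihood test, all 12 libraries by group, Benjamini-Hochberg adjustment over the 628, threshold 0.05. Alternatives were other scalings and filters, DESeq2 1.42.0, fewer libraries, all 805 small RNA names and a replicate block. Same-number libraries deviated together (r 0.36 to 0.57 for 12 pairs, -0.41 to 0.14 for 36 others). All 12 libraries were most like one of their own number, so the replicate block treated the numbers as pairing. The fit without the block ignored that pairing. Errors and adjusted p-values are from this unblocked fit unless the block or DESeq2 is named. The unblocked model was run on simulated counts of independent libraries, with no replicate effect and planted changes larger than those of the members. That run therefore does not bear on data with such an effect or on changes of the members' size.

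Arm ratios used a pseudocount of 0.5 counts. Likeness is Pearson's r of log2 CPM with a prior count of 2. Named are all members, miRNAs of the tables with a member's seed, the 3 miRNAs most like each member with a mean of at least 10 CPM, and of both lists the members past the threshold in either fit and the 3 most abundant. Members and lists were chosen with earlier results of these data known. The nearest sequence, miR-300-3p, and the names in the flagged results were added after their values were seen. The labels call the replicates biological. Separate animals or preparations are not stated, so p-values measure the spread between these libraries.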

Additional observations from a re-analysis of the deposited data

Results flagged for a closer look

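In shPum2, miR-134-5p had a library apart from the other 3: replicate 3 at 1422 CPM, below 1578, 1583 and 1599 CPM, with a gap to the nearest value of 0.883 of the whole range. In shStau2, miR-485-3p had replicate 4 at 219 CPM, above 152, 152 and 153 CPM, with a gap of 0.993 of the range. In all 35 groups of 4 values were checked for such gaps, and chance gives one in about 1 in 20 groups. The replicate 4 libraries of shNTC and shPum2 were also the highest of their groups for miR-485-3p.

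Against shNTC, miR-134-5p was lower in shStau2 in 4 of 4 pairs and higher in shPum2 in 4 of 4 pairs. The 2 log2 fold changes differed by -0.22, and that difference did not pass (edgeR adjusted p = 0.451, and 0.0719 with the replicate block). The same double order was seen for 3 of the 628 miRNAs (0.478%), the others being miR-495, of the same cluster, and miR-17-5p. Their levels in shNTC, shStau2 and shPum2 were 69.3 ± 10.7, 46.7 ± 9.70 and 83.7 ± 14.4 CPM for miR-495 and 147 ± 38.1, 117 ± 23.2 and 170 ± 39.9 CPM for miR-17-5p. Both orders are read against the same shNTC libraries.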

How the results depend on the processing

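In edgeR without a block, none of the 7 members passed in any comparison under any scaling, filter, set of libraries or set of names tried. The calls of members under the block are given with miR-134-5p and miR-329-5p. No call of a member changed with the replicate block with TMM scaling. The number of all miRNAs past the threshold did depend on the processing. In shStau2 against shNTC it was 2 without a block, 17 with DESeq2, and with the replicate block 39 (DESeq2 35, library totals 39, upper-quartile factors 38, RLE size factors 43). In shPum2 against shNTC it was 0 without a block and 1 with it (DESeq2 2, library totals 1, upper-quartile factors 1, RLE size factors 1). In shStau2 against shPum2 it was 3, with 0 under upper-quartile factors, 0 in a fit of 8 libraries, 7 with DESeq2 and 25 with the replicate block (DESeq2 31, library totals 26, upper-quartile factors 40, RLE size factors 27). Higher and lower calls with the block were 15 and 24 in shStau2 against shNTC with TMM, 7 and 32 with library totals and 21 and 17 with upper-quartile factors. In shStau2 against shPum2 they were 10 and 15, 5 and 21, and 26 and 14. With 1 library or 1 replicate number left out, the counts ranged from 1 to 27, 0 to 2 and 0 to 51 in the 3 comparisons in that order. The lowest count of the first came without shStau2 replicate 3, and with the block 5 came without replicate 4. The highest of the third, 51, came with the block without replicate 2.

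Signs that turned all belonged to values that did not pass, and the cause was not tested. For miR-134-3p, with few counts, shStau2 against shNTC turned to -0.031 with library totals, and within the block to -0.038 with library totals and -0.031 with DESeq2. In shPum2 against shNTC it turned to -0.012 with upper-quartile factors, -0.00042 with library totals, and within the block to -0.025 with DESeq2 and -0.011 with upper-quartile factors. In shStau2 against shPum2 it turned to -0.031 with library totals, and within the block to -0.0066 with DESeq2, -0.046 with library totals and -0.0008046 with RLE size factors. For miR-381-3p in shStau2 against shNTC it turned to -0.051 with library totals and -0.037 within the block. With libraries left out, miR-134-3p ranged from -0.21 to 0.25, -0.17 to 0.19 and -0.19 to 0.24 in the 3 comparisons. The ranges were -0.076 to 0.16 for miR-381-3p in shStau2 against shNTC, -0.25 to 0.077 and -0.25 to 0.035 for miR-329-3p, -0.039 to 0.28 and -0.064 to 0.29 for miR-485-3p in shPum2 against shNTC and shStau2 against shPum2, and -0.095 to 0.058 for miR-485-5p in shPum2 against shNTC. Arm ratios without a library ranged, in the 3 comparisons, from -0.40 to 0.14, -0.089 to 0.33 and -0.53 to 0.031 for miR-134, from -0.20 to -0.01, -0.15 to 0.093 and -0.19 to 0.012 for miR-329, and from -0.20 to 0.079, -0.34 to 0.030 and -0.11 to 0.26 for miR-485. For miR-381 in shPum2 against shNTC the range was -0.82 to 0.81, values that the pseudocount sets, since 4 of these 8 libraries have 0 counts of the 5p arm. The paired test of arm ratios with the replicate block cannot go below 0.125 and has the same differences by construction. Depth limits miR-134-3p, with 7 to 23 counts, and miR-381-5p, with 0 to 13.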
